A study of Mus musculus with 6 samples.

Results

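The data describe 10 genes that act directly beneath the B cell receptor (BCR) in murine splenic B cells: the Src family kinases Lyn, Blk and Fyn, the kinases Syk and Btk, the adaptor Blnk, the phospholipase Plcg2, the exchange factors Vav1 and Vav2, and the protein kinase C isoform Prkcb. They were taken by gene symbol, as known members of this part of the pathway, and all 10 were found among the 23420 genes measured in each sample. Spleens of BALB/c mice aged 7 to 11 weeks, without genetic changes, gave B cells that were purified with beads and cultured as 10 M cells for 4 hours, either with the TLR9 agonist CpG ODN 1826 at 10 μg/ml (CpG-stimulated, 3 samples) or without any agonist (unstimulated, 3 samples). Both groups were wild type, the labels name 3 mice as the source of the cells without saying which sample came from which, and replicates 1 and 2 of each group were labeled female and replicate 3 male. The mRNA of the whole cultures was sequenced, so that less RNA per cell and fewer cells carrying a transcript cannot be told apart.

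An antigen that crosslinks the BCR leads Src family kinases, above all Lyn, to phosphorylate the cytoplasmic tails of CD79A and CD79B. Syk docks on these tails and phosphorylates BLNK, which gathers BTK, PLCγ2 and VAV proteins into a complex. PLCγ2 then releases calcium and diacylglycerol, which activate NFAT and, through PKCβ, NF-κB. TLR9 is an endosomal sensor of DNA that reaches NF-κB by another route, through MyD88, and the comparison asks how its engagement alters transcripts of the BCR machinery in the same cells.

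The values are log2 CPM, the log2 of the reads of a gene per M reads counted, as the authors deposited them after quantile normalization, so each change is relative to the total mRNA and not per cell. A gene without reads is given -5.15, and 10 reads correspond to -0.76; the lowest value of the 10 genes in any sample was 5.83, far above both. Differences were tested with limma over 11233 genes, and a gene was called at a Benjamini-Hochberg adjusted p value (FDR) under 0.05. The B cell identity of the cultures was clear, with 7 of 7 B cell markers over the level of 10 reads and a median of 9.05 log2 CPM. Markers of other cells that use the same kinases were low: 0 of 7 T cell markers and 0 of 4 NK cell markers reached 10 reads on average, whereas among myeloid markers Adgre1 (2.75) and 2 others of 7 were above it. The summed level of the NK cell markers was -0.47 to 0.40 log2 CPM in stimulated and -3.00 to -2.97 in unstimulated samples, a difference that lay mainly in Klrb1c (mean -4.65 without and -0.13 with CpG), while Klra8 was at the level of no reads in all samples and Ncr1 and Gzma were near it. All 4 platelet markers were over 10 reads, with a median of 0.14, and the 5 erythroid markers had a median of 4.72 and summed levels from 8.63 to 12.28 in CpG-stimulated and from 8.72 to 11.93 in unstimulated samples. Replicate 2 of both groups stood apart in these, with Beta-s, a hemoglobin gene, at 12.16 and 11.76 against 8.46 to 9.10 in the other samples. Without replicate 2 of both groups, 8 of the 10 genes described here fell and 1 rose; Lyn (FDR = 0.091 by limma) was the one no longer called. The summed level of the B cell markers was itself lower after CpG, between 11.24 and 11.43 against 11.83 to 12.05 log2 CPM; its part in the changes below was not tested.

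After 4 hours of CpG, 9 of the 10 genes fell and 1, Blnk, rose. Among all tested genes 36.7% fell and 37.6% rose. The median log2FC of the 10 genes was -0.62, where that of all tested genes was 0.00. A log2FC under -1 was reached by Syk, Btk and Fyn, 3 of 10 against 15.3% of all tested genes. In each of the 10 genes, every CpG-stimulated sample lay on the same side of every unstimulated sample; such a separation in either direction was found in 77.7% of tested genes and is therefore common in these data.

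**Figure D1:**
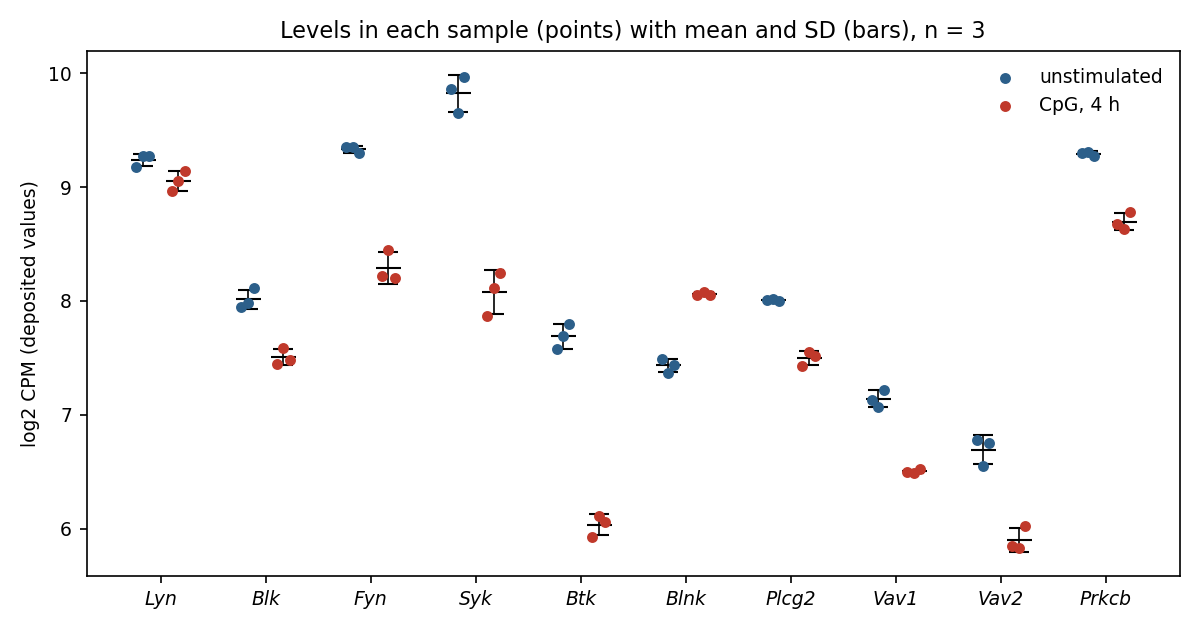
Levels of the 10 genes in log2 CPM (y axis) in each unstimulated (blue) and CpG-stimulated (red) sample, with the mean and SD of 3 samples as black bars. Blnk is the single gene whose red points lie above the blue ones, and Syk moves from a mean of 9.83 to 8.08.

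Of Lyn, Blk and Fyn, the Src family kinases among the 10 genes, Lyn had the smallest log2FC. Lyn, which starts BCR signaling and also phosphorylates the inhibitory receptors that stop it, lies on chromosome 4 of GRCm38 from 3678115 to 3813122 and shares 248 exonic bases with Gm26857 on the opposite strand. Its values were 9.18, 9.27 and 9.27 log2 CPM in unstimulated and 8.97, 9.05 and 9.14 in CpG-stimulated samples. All stimulated samples were lower, but the nearest samples of the groups were close together. The log2FC of -0.19 (SE 0.07, FDR = 0.0267) left 87.9% of the unstimulated level (95% interval 79.3% to 97.4%). This call was the weakest of the 10. It was lost without CpG-stimulated replicate 1 (FDR = 0.098), without unstimulated replicate 2 (0.0927) or 3 (0.0849), without the filter on low values (0.0811) and without the variance trend (0.0611).

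Blk, a Src family kinase found mainly in the B lineage, is on chromosome 14 from 63372836 to 63417037. It measured 7.95, 7.98 and 8.11 log2 CPM without and 7.45, 7.59 and 7.48 with CpG. The fall of 0.50 on the log2 scale (SE 0.07, FDR = 6.94e-05) was seen in each replicate number, with differences of -0.50, -0.39 and -0.63. Fyn, which T cells also use beneath their own receptor, fell further. Its unstimulated samples were nearly identical at 9.35, 9.35 and 9.30 log2 CPM, and its stimulated samples stood at 8.22, 8.45 and 8.20. With a log2FC of -1.04 (SE 0.08, FDR = 8.03e-07), 48.5% of the Fyn transcript level was left (95% interval 43.2% to 54.6%). Fyn lies on chromosome 10 from 39368855 to 39565381. Lyn and Fyn thus had nearly the same level in unstimulated cells and different levels after CpG. Lyn minus Fyn was -0.17, -0.08 and -0.03 in unstimulated and 0.75, 0.59 and 0.95 in CpG-stimulated samples. This pair was 1 of 6 compared and was picked after the values were seen. Its exact permutation p was 0.1, the lowest possible with 3 against 3 samples.

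Syk showed the largest fall of the 10 genes. Syk couples the phosphorylated receptor to all later steps and spans 52583173 to 52648792 on chromosome 13. Its level was 9.86, 9.65 and 9.97 log2 CPM in unstimulated and 7.87, 8.11 and 8.25 in CpG-stimulated samples. The gap between the groups was several times the spread within either, with SDs of 0.17 and 0.19. The log2FC was -1.75 (SE 0.11, FDR = 2.8e-07), which corresponds to 29.7% of the unstimulated level (95% interval 25.2% to 35.1%). Of all tested genes, 5.97% had a lower log2FC than Syk.

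Btk, the Tec family kinase that activates PLCγ2 and whose loss causes X-linked agammaglobulinemia in humans, fell almost as far. It lies on chromosome X from 134542336 to 134583570. Unstimulated samples had 7.58, 7.69 and 7.80 log2 CPM and stimulated samples 5.93, 6.11 and 6.06. The log2FC of -1.66 (SE 0.08, FDR = 5.66e-08) left 31.6% of the level (95% interval 28.1% to 35.6%). The replicate with the male label, number 3, had a difference of -1.74 and the female ones -1.65 and -1.58, so the transcript fell in all 3. Syk minus Btk within a sample ranged from 1.95 to 2.28 without and from 1.95 to 2.19 with CpG, and these ranges overlap.

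Blnk, also called SLP-65, was the exception. This adaptor is the main substrate of Syk and the scaffold on which BTK meets PLCγ2. Blnk lies on chromosome 19 from 40928927 to 40994535 and had 7.49, 7.37 and 7.44 log2 CPM in unstimulated samples. In CpG-stimulated samples it stood at 8.05, 8.08 and 8.05, the tightest stimulated group of the 10 genes together with Vav1 (SD 0.02 each). Its log2FC was 0.63 (SE 0.06, FDR = 4.48e-06), or 154% of the unstimulated level (95% interval 141% to 169%). Blnk and its kinase therefore changed in opposite directions, and their log2 CPM values came closer together. Blnk minus Syk was -2.37, -2.28 and -2.53 in unstimulated samples and 0.18, -0.03 and -0.20 in CpG-stimulated samples. This difference is taken within a sample, so a common scaling of that sample does not enter it. Quantile normalization is not such a scaling. The pair was 1 of 6 compared and was picked after the values were seen. Its exact permutation p was 0.1, the lowest possible with 3 against 3 samples.

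Plcg2, the phospholipase that splits a membrane lipid into the calcium-releasing inositol trisphosphate and diacylglycerol, is on chromosome 8 from 117498291 to 117635142. It had 8.01, 8.02 and 8.0 log2 CPM without and 7.43, 7.55 and 7.52 with CpG. The log2FC was -0.51 (SE 0.06, FDR = 1.88e-05). Prkcb, the diacylglycerol-responsive kinase that links the receptor to NF-κB, lies on chromosome 7 from 122288751 to 122634402. It went from 9.30, 9.31 and 9.27 to 8.68, 8.63 and 8.78 log2 CPM, a log2FC of -0.59 (SE 0.06, FDR = 1.01e-05). Both enzymes kept about the same share of their level, 70.3% for Plcg2 (95% interval 64.3% to 76.8%) and 66.3% for Prkcb (60.3% to 72.8%).

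Vav1 and Vav2 encode guanine nucleotide exchange factors that switch on Rac and related GTPases and so link the receptor to the actin cytoskeleton. Vav1 (chromosome 17, 57279100 to 57328031) had 7.13, 7.07 and 7.22 log2 CPM without and 6.5, 6.49 and 6.52 with CpG, a log2FC of -0.64 (SE 0.06, FDR = 6.77e-06). Vav2 (chromosome 2, 27262104 to 27427033) had 6.78, 6.55 and 6.75 without and 5.85, 5.83 and 6.02 with CpG, a log2FC of -0.79 (SE 0.08, FDR = 1.12e-05). The intervals of the log2FC overlapped, from -0.78 to -0.50 for Vav1 and from -0.98 to -0.61 for Vav2. Vav1 minus Vav2 within a sample was 0.36 to 0.52 in unstimulated and 0.50 to 0.66 in stimulated samples, with overlapping ranges.

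The 250 bases before the RefSeq start sites (GRCm38.p6) of Vav1, Vav2 and Btk, which are among the 9 genes that fell, are shown. Capitals mark the letters GAGGAA, the core bound by PU.1 and Spi-B, on either strand. The Vav1 window is chr17:57278850-57279099 on the plus strand, the Vav2 window chr2:27427609-27427858 on the minus strand and the Btk window chrX:134583141-134583390 on the minus strand, each read 5′ to 3′. The Btk window lies within the GENCODE gene but outside its exons, and the Vav1 and Vav2 windows lie before the gene. The window of Plcg2, which also fell, lies outside annotated exons too. It holds no GAGGAA on either strand and is not shown.
Vav1: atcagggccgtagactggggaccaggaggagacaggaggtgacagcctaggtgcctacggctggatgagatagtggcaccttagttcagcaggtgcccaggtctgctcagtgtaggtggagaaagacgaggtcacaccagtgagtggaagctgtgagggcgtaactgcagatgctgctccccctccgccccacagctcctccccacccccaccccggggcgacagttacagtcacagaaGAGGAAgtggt
Vav2: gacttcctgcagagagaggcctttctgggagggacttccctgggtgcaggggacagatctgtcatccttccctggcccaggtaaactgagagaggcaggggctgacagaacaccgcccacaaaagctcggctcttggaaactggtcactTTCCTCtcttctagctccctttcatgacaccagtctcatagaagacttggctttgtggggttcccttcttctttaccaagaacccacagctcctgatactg
Btk: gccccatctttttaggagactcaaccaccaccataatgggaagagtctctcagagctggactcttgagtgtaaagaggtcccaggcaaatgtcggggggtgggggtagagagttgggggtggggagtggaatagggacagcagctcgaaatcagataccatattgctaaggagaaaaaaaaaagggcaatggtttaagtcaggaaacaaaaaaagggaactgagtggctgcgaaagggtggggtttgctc

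In Vav1 the match begins 11 bases before the start site, and in Vav2 it is on the opposite strand, 101 bases before it. Windows were found for 8 of the 10 genes, all but Lyn and Blk, with 2 for Syk. The core was present in 3 of these 9 windows, those of Vav1, Vav2 and the second Syk start, and in 23.3% of 32817 promoter windows of the same length. The octamer ATGCAAAT was found in the windows of Blnk and Prkcb, 2 of 9 against 1.6% of all windows, and thus in the gene that rose and in a gene that fell. Both windows lie wholly within GENCODE exons (250 of 250 bases), as does the first Syk window. Of the second Syk window 29 bases do, and of the Fyn window 35. An NF-κB consensus of 10 letters, present in 0.357% of all windows, and the AP-1 sequence TGANTCA, in 6.75%, were found in 0 of 9. For NF-κB only this strict form was searched, and looser forms were not. The Vav2 window shown above holds a run of 10 letters close to this form, which the search did not count. The 0 of 9 therefore does not show that sequences like an NF-κB site are absent from these windows. Each motif was searched on both strands, no match of one overlapped a match of another in these windows, and a match is a run of letters and not a measured binding site.

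**Figure D2:**
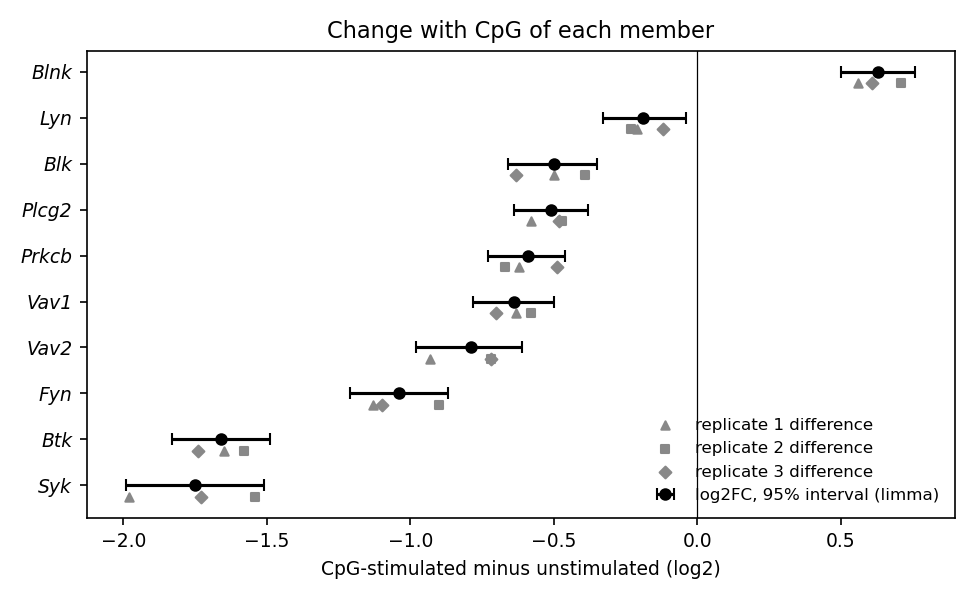
Log2FC of each gene, CpG-stimulated minus unstimulated (x axis), as black points with the 95% interval from limma, above the difference within each replicate number as gray symbols (triangles, replicate 1; squares, replicate 2; diamonds, replicate 3). All 3 replicate numbers moved in the direction of the log2FC in each of the 10 genes, from Syk at -1.75 to Blnk at 0.63.

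When the hypothesis was a change of more than 0.5 on the log2 scale in place of any change (limma's treat), Syk, Btk, Fyn and Vav2 still passed. Blk, Plcg2, Prkcb, Vav1, Blnk and Lyn did not, with Vav1 (FDR = 0.0625) and Blnk (FDR = 0.0653) nearest to the threshold.

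Levels of different genes can be compared per length of exon only. On the scale of log2 CPM per kb of annotated exon, Lyn and Fyn led in unstimulated cells at 7.21 ± 0.05 and 7.21 ± 0.03 (mean ± SD, n = 3), and their samples overlapped. Syk followed at 6.60 ± 0.17 and overlapped with Blk at 6.58 ± 0.09. Prkcb (6.36), Btk (6.04), Plcg2 (5.91), Vav1 (5.26), Blnk (4.85) and Vav2 (3.90) came next in separate steps. After CpG the order was different. Lyn alone was on top at 7.03 ± 0.09, Fyn (6.16) and Blk (6.08) overlapped below it, and Prkcb had 5.76. Blnk moved from place 9 to place 5 at 5.48 ± 0.02, and Syk from place 3 to place 7 at 4.85 ± 0.19. Btk ended at 4.38 and Vav2 remained last at 3.11. The places depend on which length is used. With the longest coding transcript in place of all annotated exons, Prkcb led in unstimulated cells at 7.75, Syk went from place 4 to place 6, and Blnk from place 6 to place 3.

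**Figure D3:**
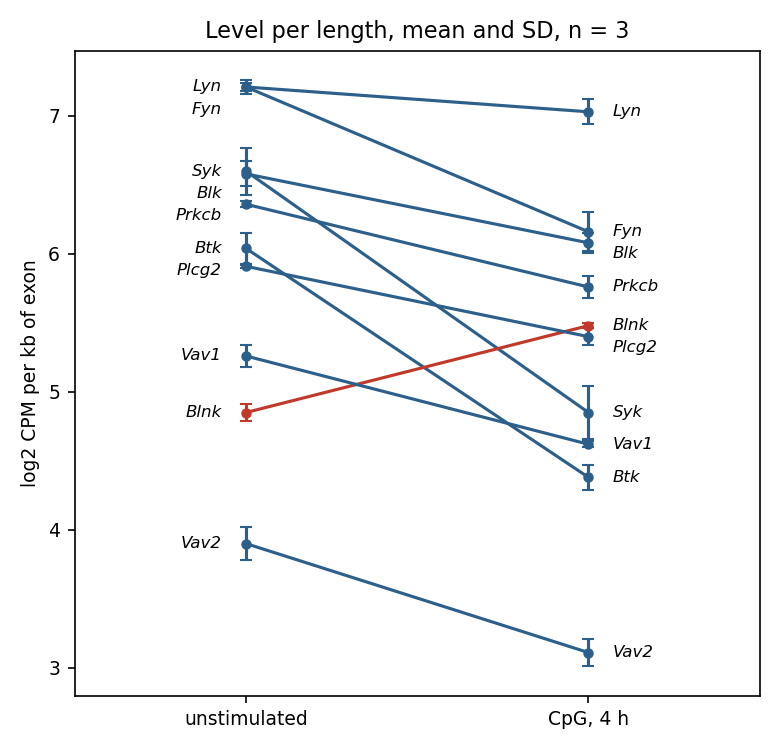
Level of the 10 genes in log2 CPM per kb of annotated exon (y axis) in unstimulated and CpG-stimulated samples, as means with SD bars of 3 samples; the red line marks the gene that rose and blue lines those that fell. Syk and Btk drop across several other genes, whereas Blnk climbs from 4.85 to 5.48.

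Other members of the same families gave a contrast among the Src kinases. Lyn, Fyn and Blk were the most abundant ones per length and fell, while 4 of the other 5 rose. Lck, a kinase known from T cells, rose from 6.38 ± 0.21 to 7.05 ± 0.09 log2 CPM (SD, n = 3), with an FDR of 0.000158. Fgr, known from myeloid cells, rose by a log2FC of 0.89 (FDR = 0.000817) and Yes1 by 1.96 from a low level of 1.39 (FDR = 0.000186). Src did not pass (log2FC -0.04, FDR = 0.892). Per kb of exon the named genes stayed under the 3 B cell Src kinases, with Lck at 5.50 after CpG. The summed level of T cell markers was -0.27 to 0.35 in unstimulated and -0.35 to 0.42 log2 CPM in stimulated samples, and that of myeloid markers 2.79 to 3.72 and 3.35 to 3.96; that sum is carried mostly by Adgre1, which was 2.34 without and 3.16 with CpG on average. Of the 7 myeloid markers 5 had a lower mean after CpG, among them Csf1r (-0.37 without and -1.98 with CpG) and S100a8 (-1.39 and -4.07), and the part of other cells in these changes was not tested. Yes1 shares 635 exonic bases with a gene on the opposite strand.

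Tec, the relative of Btk that gave the family its name, stood at 7.17 ± 0.06 log2 CPM (SD, n = 3) in unstimulated and 5.43 ± 0.27 in stimulated samples, and its log2FC was -1.74 (FDR = 5.19e-07) next to -1.66 for Btk. Zap70, the T cell counterpart of Syk, stayed under the filter with a mean of -2.94 in unstimulated cells. All 7 tested isoforms beside Plcg2, the Vav pair and Prkcb fell, with a median log2FC of -0.83. Plcg1, the isoform that T cells rely on, fell by 1.77 on the log2 scale (FDR = 1.62e-07); 379 of its exonic bases at most are shared with a gene on the other strand. Vav3 fell by 0.86, and Prkcd, Prkce and Prkca had log2FC values of -0.42, -0.62 and -0.28, all called. Per kb of exon, Plcg2 at 5.91 was far above Plcg1 at 2.38 in unstimulated cells, and Vav1 at 5.26 above Vav2 at 3.90 and Vav3 at 2.24.

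The wider BCR pathway was followed through 10 lists by role, including the relatives described above, with 97 genes of which 91 were tested. In these lists, 62 genes fell, 16 rose and 13 were not called, and the median log2FC was -0.62, as it was for the 10 kinases and adaptors. These counts, and those of the lists below, stand beside 36.7% that fell, 37.6% that rose and a median of 0.00 over all tested genes. Above them, in the receptor list, 3 of 6 genes fell and 2 rose. Cd79a, the signaling chain on which Syk docks, fell by 1.62 (FDR = 4.14e-07). Cd81, a tetraspanin of the coreceptor complex, had 6.44 ± 0.08 log2 CPM (SD, n = 3) without and 8.82 ± 0.27 with CpG, so its log2FC was 2.38 (FDR = 7.6e-08); 104 of its exonic bases are shared with R74862 on the other strand.

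The other adaptors mostly went the opposite way to Blnk. Of 12 tested, 7 fell and 2 rose. Gab1, a docking protein for PI3K and SHP2, fell by 2.28 (FDR = 5.4e-05), from a low level of 1.60, and Lat2, also called NTAL, fell by 1.96 (FDR = 6.4e-07). Nck2 rose by 1.53 (FDR = 4.4e-07) and Grb2, which brings SOS to the complex, by 0.35 (FDR = 0.000671). Lat2 shares 952 exonic bases with Rfc2 and Gab1 266 with Gm31105 on the opposite strand.

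Among 13 calcium and NFAT genes 11 fell, with a median log2FC of -0.99. Itpr3, a receptor for inositol trisphosphate whose exons overlap those of Itpr3os on the other strand, fell by 2.16 (FDR = 3.21e-08) and Nfatc2 fell by 1.62 (FDR = 8.18e-07), whereas Orai1, the pore of the store-operated calcium channel, rose by 0.88 (FDR = 1.06e-06) and Ppp3cb, a catalytic subunit of calcineurin, by 0.37 (FDR = 0.000179). Of 13 Ras and MAP kinase genes 7 fell, 2 rose and 4 were not called, with a median log2FC of -0.25, and a share not far above the 36.7% of all tested genes that fell. The lowest log2FC was that of Rasgrp1, -1.56 (FDR = 4.18e-07). Hras and Map2k1 rose by 0.92 and 0.53.

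Genes that restrain the BCR fell as well. Of 15 tested inhibitory kinases, phosphatases, ligases and adaptors, 13 fell and 0 rose, with Dok1 (log2FC -0.09, FDR = 0.371) and Ptpn6 (0.07, FDR = 0.564) not called. Inpp5d, the lipid phosphatase SHIP1, had 10.01 ± 0.08 log2 CPM (SD, n = 3) in unstimulated and 7.16 ± 0.27 in stimulated samples, with a log2FC of -2.85 (FDR = 3.57e-08), and Dok3, an adaptor that binds SHIP1, fell by 2.76 (FDR = 2.66e-07). Csk, the kinase that holds Src family kinases inactive, fell by 0.23 (FDR = 0.0166). Among 6 tested inhibitory receptors 4 fell and 1 rose. Pirb, listed as Lilrb3, fell by 3.45 (FDR = 0.00022), but 2 of its 3 stimulated samples were under the level of 3 reads (-2.34), so the size is uncertain. Cd72 rose by 0.76 (FDR = 2.98e-06); it shares 1423 exonic bases with Tesk1 on the opposite strand.

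**Figure D4:**
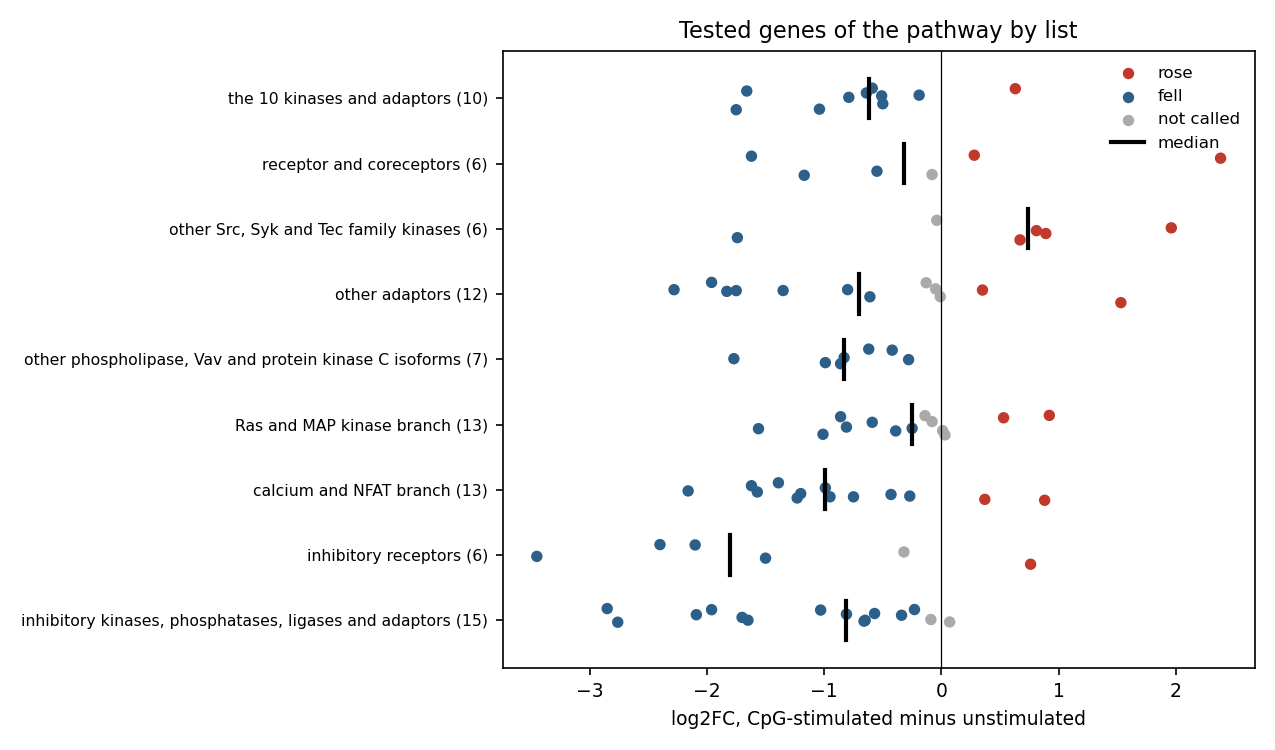
Log2FC of each tested gene (x axis) in the 10 kinases and adaptors and in 8 of the 10 further lists of the BCR pathway, with the number tested in parentheses; red points rose, blue points fell, gray points were not called, and black bars are medians. Most lists lie left of 0, with the inhibitory receptors at a median of -1.80, and the other Src, Syk and Tec family kinases are the one list shown with a median above 0, at 0.74.

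By distance over the 6 samples after subtracting the mean of each gene, the genes most like Syk were Tctn3 (0.151), Bmf (0.165) and Serinc3 (0.169), with log2FC values of -1.82, -1.83 and -1.85. Those most like Blnk were Higd1a (0.068), Lsm3 (0.080) and Psmb4 (0.086), with 0.65, 0.67 and 0.67. With 6 samples in 2 groups, such likeness rests mainly on a log2FC of similar size.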

How the data were processed

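Per the labels, 6 samples of bead-purified B cells of WT BALB/c mice were used, 3 CpG-stimulated and 3 unstimulated, grouped by their labels. The authors trimmed reads with Trim Galore 0.6.5, aligned them to mm10 with STAR 2.6.1a, counted them per gene with featureCounts (Subread 2.0.1), and applied quantile normalization and voom in limma. The library kit was stranded; the annotation and strand setting used for counting are not given in the sources used here. The deposited values were read as log2 CPM with an offset of 0.5 reads. Their most common value, -5.15, was taken as that of a gene without reads, which corresponds to 17.8 M counted reads per sample. Depth of single samples cannot be read from quantile-normalized values, which sum to between 992384 and 1012396 CPM.

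The deposited values were tested as they are with limma 3.58.1 in R 4.3.3 (lmFit, eBayes with a trend) over 11233 genes above the level of 10 reads in at least 3 samples, with Benjamini-Hochberg adjustment over all of them. This fit had no term for replicate number and so did not use the pairing of samples described below. With that term added as an alternative, the FDR of Lyn was 0.00651 (limma). An exact permutation test of 3 against 3 samples cannot fall under 0.1 and was not used for single genes. Labels do not tie samples to mice, so p values measure the spread between these samples. The test was checked on simulated data with known changes, drawn independently for each sample. That simulation had a far smaller share of changed genes than these data. It held neither the pairing nor the shift by replicate number described below, and so does not cover them.

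Replicate numbers were taken to pair the samples: deviations from group means correlated at 0.435, 0.224 and 0.300 for equal numbers and between -0.281 and 0.0279 for others. Values also carry a shift per gene by replicate number (0.167 of the step of 1 read, median of 254 genes). In these genes 1 sample of a pair lay 1 read above its partner, and the partner lay below the samples of other numbers. Such a shift lowers the correlation of equal numbers. It does not enter the log2FC where both samples of a number are kept. The shift does enter the spread within each group, and so the SDs, SEs, intervals and FDRs of the main fit. It also enters the log2FC where a single sample is left out. How much it changed these values was not tested.

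Coordinates, exon lengths and overlaps are from GENCODE M21 (GRCm38), and promoter windows from RefSeq. Hras, Pirb and Adgre1 were matched to older symbols in the files. Named were all 10 genes and, of each pathway list, the called genes with the most extreme log2FC in each direction, 1 each, or 2 each in lists with over 8 tested genes, and genes nearest in pattern; Lck, Fgr, Src, Vav3, Prkca, Prkcd, Prkce, Zap70, Csk, Dok1 and Ptpn6 were named after their values were seen. Some genes and 2 lists that enter the counts are not reported here. Members, lists and tests were chosen with earlier results of these data known. Alternatives covered the filter, scale, replicate block, centring, variance trend, treat, each sample left out and, added after seeing the data, replicate 2 of both groups left out.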

Additional observations from a re-analysis of the deposited data

How the results depend on the processing

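With the replicate block 9 of the 10 genes fell and 1 rose, as without it, and in the lists of the pathway 63 genes fell and 16 rose; the block ended no call of the 10 genes. Without each sample in turn, or without replicate 2 of both groups, 8 or 9 of the 10 fell, the missing one being Lyn. When treat was used with a limit of 0.5 on the log2 scale, it kept 4 of the 10 as fallen and 0 as risen, 41 pathway genes as fallen and 6 as risen, and 2186 and 2315 of all tested genes, as it asks for more evidence. No log2FC of the 10 genes changed sign under 14 alternatives, including one without replicate 2 of both groups that was added after seeing the data: Syk ranged from -1.85 to -1.65, Btk from -1.72 to -1.61, Fyn from -1.12 to -1.0, Blnk from 0.58 to 0.65 and Lyn from -0.23 to -0.14. The FDR of Lyn ranged from 0.00651 to 1, and the cause of its lost calls was not tested. Levels per length moved by more than 1 SD for 9 of 10 genes with the longest coding transcript, Plcg2 being the exception. Since quantile normalization fixes the total, a change of RNA content per cell cannot be seen in these values.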
